A study of Mus musculus with 15 samples.

Results

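The 9 genes described here belong to the canonical Wnt pathway or are transcribed in response to it, and were followed by RNA-seq in mouse embryonic stem cells (ESC) with and without Hmga1, a chromatin protein that binds AT-rich DNA. They are the ligand Wnt3, the secreted antagonist Dkk1, the signal transducer Ctnnb1, the transcription factors Tcf7, Lef1 and Tcf7l1, and the feedback or target genes Axin2, Nkd1 and Sp5. They were picked out by gene symbol, and all 9 were found among the 21662 genes of both count tables. The first experiment comprised 9 libraries, from WT (3), Hmga1ko (2), Hmga1ab (2) and Hmga2ab (2), and the second comprised 6, from WT_2 (3) and Hmga1ko_2 (3). Hmga1ko carries a frameshift made with Cas9 where an exon meets an intron. Hmga1ab and Hmga2ab are Hmga1ko cells with a biotin-tagged Hmga1 or Hmga2 cDNA placed at a defined locus under the CAG promoter (ab, add-back). Per the methods of the study, Hmga1ko_2 lacks the whole Hmga1 coding sequence, cut out with a guide on either side. All lines derive from ESC of a mixed 129Sv-C57Bl/6 background that express the biotin ligase BirA from the CAG promoter, WT included, and were grown with serum and LIF on feeder cells or gelatine. Each genotype is 1 cell line, so a difference between genotypes cannot be told apart from a difference between clones. In the first experiment the letters a and b mark batches that shared the day of library preparation and the flow cell, and WT c is the only library of its batch.

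In canonical Wnt signalling, a secreted Wnt ligand binds a Frizzled receptor and an Lrp co-receptor. This stops the destruction complex, of which Axin proteins are the scaffold, from marking beta-catenin for degradation. Beta-catenin then enters the nucleus and acts with DNA-binding factors of the Tcf/Lef family, which recognise the core CTTTGA. In ESC the pathway favours self-renewal, and in the early embryo it is needed for the primitive streak. Axin2, Nkd1 and Sp5 are widely used as readouts, since they are switched on by beta-catenin, and Axin2 and Nkd1 in turn dampen the signal.

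In the NCBIM37 assembly (mm9), on which the reads were counted, Sp5 lies on chromosome 2 from 70312980 to 70315786 and Axin2 on chromosome 11 from 108781663 to 108812097, both on the plus strand. Dkk1 lies on chromosome 19 from 30620353 to 30624155 and Tcf7 on chromosome 11 from 52065873 to 52096681, both on the minus strand. Lef1 lies on chromosome 3 from 130813389 to 130927274, Nkd1 on chromosome 8 from 91045243 to 91118786 and Ctnnb1 on chromosome 9 from 120838334 to 120869625, all on the plus strand. Wnt3, on the plus strand, lies on chromosome 11 from 103635464 to 103679271, and Tcf7l1, on the minus strand, on chromosome 6 from 72576372 to 72739248. The counts cover the exons, UTRs included, which sum to between 2097 bases in Sp5 and 7629 bases in Lef1.

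The region before the transcription start was read for the genes at which the Tcf/Lef core was found, Sp5, Dkk1 and Lef1, and for the readout gene Axin2 as a contrast. The sequences are those of RefSeq on GRCm38.p6, run 5′ to 3′ on the strand of the gene, and cover the 250 bases before the start. Capitals mark CTTTGA or its reverse complement TCAAAG.
Sp5 (chr2:70474673-70474922, + strand): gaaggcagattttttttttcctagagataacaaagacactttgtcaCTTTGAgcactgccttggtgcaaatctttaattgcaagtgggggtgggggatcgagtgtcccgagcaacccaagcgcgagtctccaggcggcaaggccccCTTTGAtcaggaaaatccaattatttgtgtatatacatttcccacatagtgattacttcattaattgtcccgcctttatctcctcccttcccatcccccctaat
Dkk1 (chr19:30549497-30549746, - strand): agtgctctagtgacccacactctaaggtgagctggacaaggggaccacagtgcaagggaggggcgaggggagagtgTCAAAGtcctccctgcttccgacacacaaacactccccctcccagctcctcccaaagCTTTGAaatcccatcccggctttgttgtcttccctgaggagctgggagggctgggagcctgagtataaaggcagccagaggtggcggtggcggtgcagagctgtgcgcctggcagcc
Lef1 (chr3:131156044-131156293, + strand): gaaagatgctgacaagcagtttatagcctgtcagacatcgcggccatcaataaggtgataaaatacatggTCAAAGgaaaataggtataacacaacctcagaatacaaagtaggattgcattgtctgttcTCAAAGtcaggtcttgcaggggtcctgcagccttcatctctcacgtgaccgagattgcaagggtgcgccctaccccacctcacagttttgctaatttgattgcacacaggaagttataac
Axin2 (chr11:108920099-108920348, + strand): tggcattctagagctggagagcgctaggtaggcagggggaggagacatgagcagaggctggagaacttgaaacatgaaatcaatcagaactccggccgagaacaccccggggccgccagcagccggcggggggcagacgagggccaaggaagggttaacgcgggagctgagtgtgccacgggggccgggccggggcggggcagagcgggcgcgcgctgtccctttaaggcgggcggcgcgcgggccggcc
In Sp5, a zinc finger transcription factor, both matches lay on the strand of the gene and began 204 and 104 bases before the start. In Dkk1 the matches began 174 and 117 bases before the start, on opposite strands. Of the 4 starts listed for Lef1, the match was found only at the one printed, which lies farthest along the gene. The other 6 genes had no match in any of their windows, which says only that these letters are not there. Of all 32851 windows of this length, 13.8% held the core, as did 3 of the 14 windows of the 9 genes. The median AT content over all windows was 47.6%, and it was 54.0% in Sp5, 55.2% in the printed Lef1 window, 39.2% in Dkk1 and 30.8% in Axin2. The windows of Ctnnb1, Tcf7 and Tcf7l1 were between 24.0% and 35.6% AT.

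The counts on genes summed to between 13465399 and 34952136 per library in the first experiment, where batch a was the deeper, and to between 14832310 and 21708492 in the second. Levels are given as CPM, counts brought to one common library size with TMM factors over the 15 libraries, and comparisons between genes as RPKM, CPM per kilobase of exon. Hmga1 itself had 437, 258 and 204 CPM in WT a, b and c, 204 and 90.02 in Hmga1ko a and b, and 171 and 115 in the libraries labelled Hmga1ab. Hmga1ab was thus below Hmga1ko in batch a and above it in batch b, and below WT in both. Whether reads of the add-back cDNA were counted in full is not given in the sources used here. These RNA values do not give the level of Hmga1 protein. In Hmga2ab, Hmga2 was at 219 ± 16.6 CPM (SD, n = 2) against 16.3 ± 5.41 in WT (SD, n = 3). In the second experiment Hmga1 was at 378 ± 27.8 CPM in WT_2 and 13.0 ± 0.865 in Hmga1ko_2 (SD, n = 3 each). WT_2 b stood apart: its TMM factor was 0.674, against 0.887 to 1.01 in the other libraries of the second experiment, and 8.78% of its counts fell on its 10 top genes, where the others had 4.67% to 5.38%. The 8 pluripotency markers, summed, were at 4385 to 5438 CPM in 14 libraries and at 8824 in WT_2 b. They did not all rise there. Zfp42 was at 3175 CPM in WT_2 b, against 1358 and 1318 in WT_2 a and c, and Nanog at 46.1 against 96.1 and 97.8. Of the 8, only Fgf4 passed an adjusted p of 0.05 in Hmga1ko_2 against WT_2, where 8.25% of all genes did. It was lower (log2 fold change -0.70 ± 0.12, adjusted p = 0.0279, edgeR). All 8 markers were detected in every library. The 10 feeder fibroblast markers summed to between 5.53 and 19.7 CPM.

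The levels of the 9 genes differed widely. Per kilobase, Ctnnb1, which encodes beta-catenin, was the most abundant by far, at 243 ± 29.8 RPKM in WT and 273 ± 8.77 RPKM in WT_2 (SD, n = 3 each). Tcf7 followed with 9.72 ± 2.33 RPKM in WT and 16.7 ± 2.72 RPKM in WT_2, and Tcf7l1, which in ESC acts mostly as a repressor of Wnt targets, with 7.63 ± 3.58 and 10.6 ± 3.05 RPKM. Lef1, the lowest of the 3 Tcf/Lef factors among the 9 genes, was at 0.476 ± 0.398 and 0.737 ± 0.0414 RPKM. Among the readouts Axin2 was the highest, at 3.87 ± 0.648 and 2.18 ± 0.306 RPKM. Sp5 was at 1.01 ± 0.363 and 0.566 ± 0.223 RPKM, and Nkd1 at 0.585 ± 0.0717 and 0.711 ± 0.233 RPKM. Dkk1 was at 1.23 ± 0.610 RPKM in WT and 0.0983 ± 0.0471 RPKM in WT_2, and Wnt3 was near the limit of detection at 0.0921 ± 0.0205 and 0.0113 ± 0.00983 RPKM. When the 6 groups were ordered by mean CPM for each gene, the libraries of neighbouring groups overlapped in 42 of 45 pairs. Neighbours have the closest means, which favours overlap, and the share over all genes was not computed. The exceptions were WT_2 above Hmga1ko_2 for Dkk1 and for Lef1, and Hmga1ko_2 above Hmga1ko for Sp5. The last of these pairs crosses the experiments. That of Dkk1 rests on 11 counts in WT_2 and 4 in Hmga1ko_2. Between WT_2 and Hmga1ko_2, 51.2% of all genes tested did not overlap, in either direction.

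**Figure D1:**
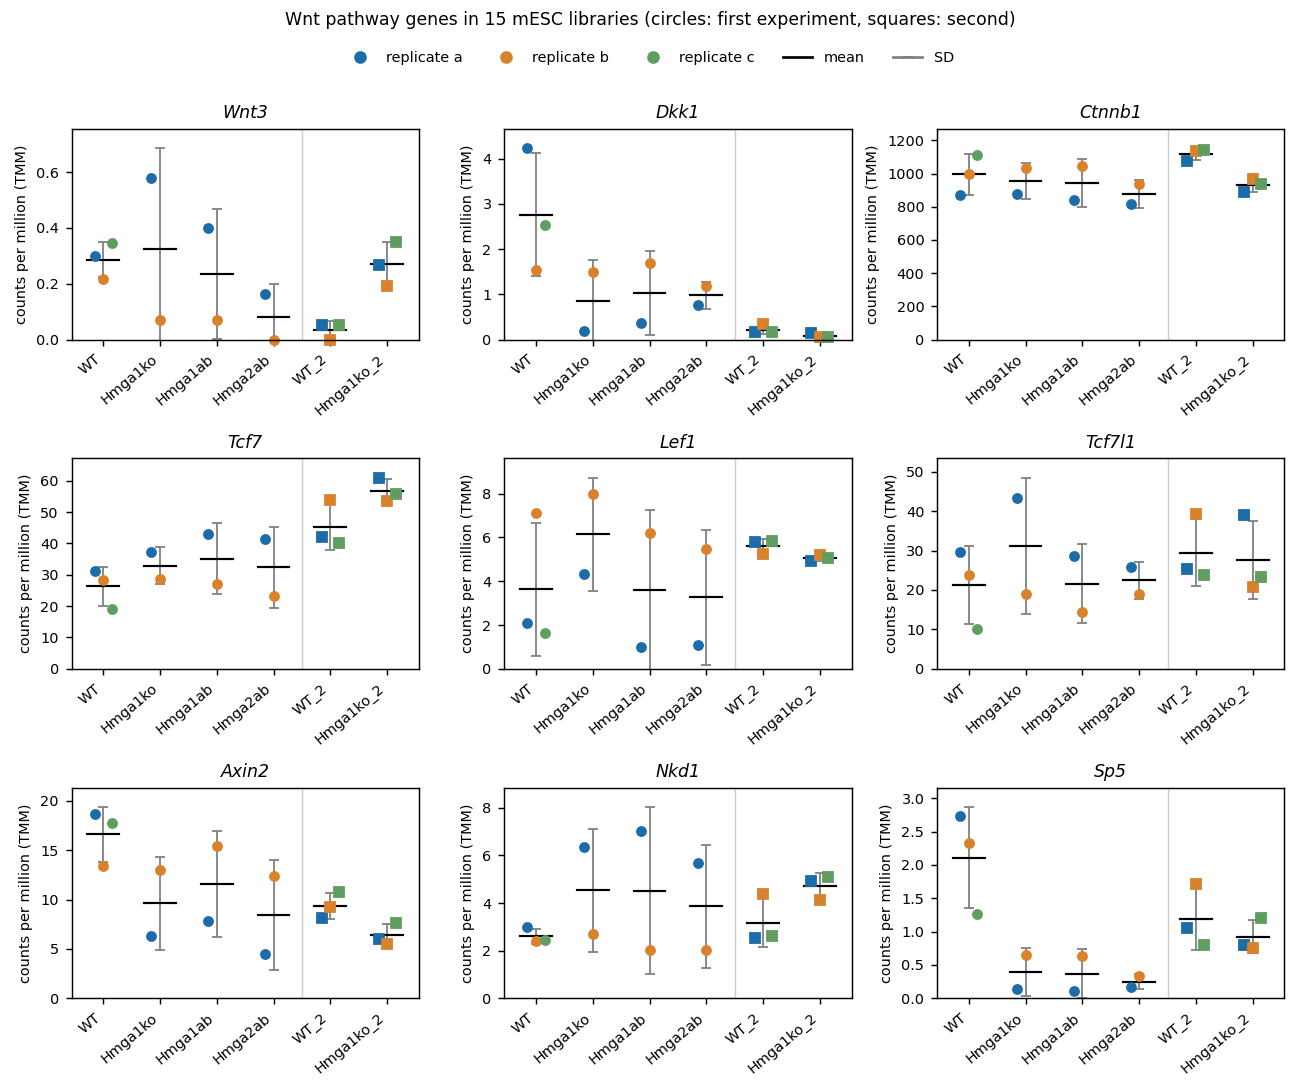
Level of each of the 9 genes in the 15 libraries, in TMM-normalized CPM (y axis, from 0), by group (x axis). Each symbol is 1 library, coloured by its letter, with circles for the first experiment and squares for the second, and the bar and whiskers are the mean and SD. Sp5 is between 1.26 and 2.74 CPM in WT and below 0.642 in the 6 libraries of the other lines of the first experiment, whereas WT_2 and Hmga1ko_2 overlap.

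The first experiment set the line without Hmga1, and its derivatives with added Hmga1 or Hmga2, beside WT. Sp5 showed the widest difference of the 9 genes. It had 92, 32 and 33 counts in WT a, b and c, 5 and 9 in Hmga1ko a and b, 4 and 9 in the libraries labelled Hmga1ab, and 6 and 5 in Hmga2ab. Normalized for depth these were 2.74, 2.33 and 1.26 CPM in WT, 0.132 and 0.641 CPM in Hmga1ko, 0.107 and 0.633 CPM in Hmga1ab, and 0.165 and 0.329 CPM in Hmga2ab. Each of the 6 libraries from the knockout line and its derivatives was thus below each WT library. Within batch a, Sp5 was at 4.82% of WT in Hmga1ko, 3.89% in Hmga1ab and 6.01% in Hmga2ab, and within batch b at 27.6%, 27.2% and 14.1%. The log2 fold change against WT was -3.15 ± 0.66 (SE) in Hmga1ko, -3.24 ± 0.67 in Hmga1ab and -3.53 ± 0.68 in Hmga2ab. The adjusted p-values of edgeR's quasi-likelihood test, 0.130, 0.125 and 0.0944, did not pass 0.05. These 3 comparisons share the WT libraries, and the add-back lines were made from Hmga1ko.

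Axin2, the scaffold of the destruction complex that is itself induced by the pathway, was below WT in batch a and near WT in batch b. It had 18.7, 13.5 and 17.7 CPM in WT a, b and c, 6.28 and 13.0 in Hmga1ko, 7.78 and 15.4 in Hmga1ab, and 4.496 and 12.4 in Hmga2ab. Within batch a it was at 33.6%, 41.7% and 24.1% of WT in Hmga1ko, Hmga1ab and Hmga2ab. Within batch b it was at 96.4%, 115% and 91.8%. The log2 fold change was -0.94 ± 0.39 in Hmga1ko (adjusted p = 0.382), -0.66 ± 0.39 in Hmga1ab (adjusted p = 0.482) and -1.17 ± 0.40 in Hmga2ab (adjusted p = 0.218, edgeR).

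Dkk1, which blocks the Lrp co-receptors, followed the same course across the batches. It was at 4.23, 1.53 and 2.53 CPM in WT a, b and c, 0.185 and 1.4955 in Hmga1ko, 0.373 and 1.69 in Hmga1ab, and 0.768 and 1.18 in Hmga2ab. Within batch a these were 4.37%, 8.83% and 18.2% of WT, and within batch b 98.0%, 111% and 77.5%. The log2 fold changes of -2.42 ± 0.91, -2.01 ± 0.88 and -1.82 ± 0.84 had adjusted p-values of 0.351, 0.378 and 0.312 (edgeR). Markers of other cell types also differed between these libraries. Of primitive endoderm, a cell type that arises spontaneously in ESC culture, all 6 listed genes (Gata4, Gata6, Sox7, Sox17, Dab2 and Pdgfra) were detected in every library, and their sum was 109, 36.3 and 72.6 CPM in WT a, b and c. It was 9.73 and 29.8 CPM in Hmga1ko, 23.2 and 62.9 in Hmga1ab, and 25.004 and 20.6 in Hmga2ab. The sum was thus lowest in Hmga1ko a, as was Dkk1, whereas in Hmga2ab it was lower in batch b and Dkk1 was lower in batch a. All 6 had negative log2 fold changes against WT in the 3 other lines, and none passed (edgeR). They ran from -2.44 to -1.19 in Hmga1ko, from -1.34 to -0.78 in Hmga1ab and from -2.01 to -1.31 in Hmga2ab. In the second experiment the sum was 11.8 to 12.3 CPM in WT_2 and 15.02 to 15.08 in Hmga1ko_2. The markers tested there had either sign, and none passed (edgeR). Gata4, Sox17 and Dab2 had log2 fold changes of 0.71, 0.37 and 0.82, and Sox7 and Pdgfra of -0.49 and -0.56. Dkk1 was the lower in Hmga1ko_2, with 4 counts in all against 11 in WT_2. The 6 neural markers, of which up to 2 were at 0 in a library, summed to 139 to 166 CPM in WT and to 96.7 to 158 in the 3 other lines, and to 184 to 192 CPM in WT_2 against 153 to 154 in Hmga1ko_2. The neural factors Sox1 and Pax6 had log2 fold changes of -1.37 and -0.96 in Hmga1ko, -1.09 and -1.91 in Hmga1ab and -1.35 and -1.85 in Hmga2ab, and passed in none of the 3 (adjusted p of 0.116 to 0.371, edgeR). Nes and Tubb3, the other neural markers tested, were at -0.19 and 0.13 in Hmga1ko, -0.31 and -0.10 in Hmga1ab and -0.32 and -0.17 in Hmga2ab. In Hmga1ko_2, Sox1 and Pax6 were at -0.04 and -0.06, and Nes and Tubb3 at -0.44 and -0.30. None of these passed either (edgeR). The 8 mesendoderm markers summed to 6.11 to 7.17 CPM in WT and 4.54 to 8.06 in the 3 other lines, and to 1.98 to 4.71 in WT_2 and 4.33 to 4.76 in Hmga1ko_2, with up to 4 of them at 0 in a library. The part of such cells in the values of Dkk1, Axin2 and Sp5 was not tested. In bulk RNA, fewer cells of a type and less RNA per cell cannot be told apart.

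**Figure D2:**
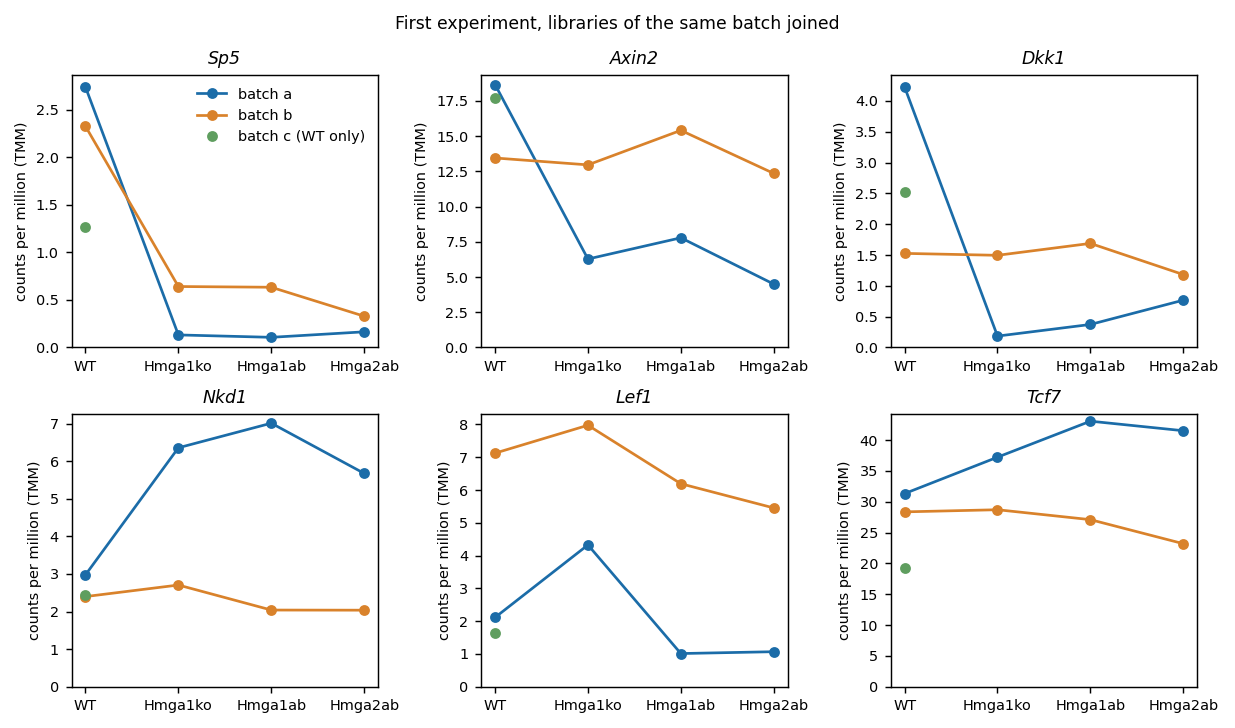
Level of 6 of the genes in the first experiment, in TMM-normalized CPM (y axis, from 0), in the 4 lines (x axis), with libraries of the same batch joined. Sp5 is below WT along both lines, while along the line of batch b Axin2 lies between 91.8% and 115% of WT and Dkk1 between 77.5% and 111%.

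Nkd1, which binds Dishevelled and restrains the signal, also split by batch, with the opposite sign to Axin2. It was at 2.98, 2.40 and 2.45 CPM in WT a, b and c, 6.36 and 2.71 in Hmga1ko, 7.01 and 2.04 in Hmga1ab, and 5.68 and 2.04 in Hmga2ab. The batch a libraries of the 3 lines were at 214%, 236% and 191% of WT a, and those of batch b at 113%, 85.1% and 84.9% of WT b. The log2 fold change of 0.68 ± 0.36 in Hmga1ko had an adjusted p of 0.478 (edgeR), and those of Hmga1ab and Hmga2ab were 0.64 ± 0.36 and 0.44 ± 0.37.

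Of the nuclear factors, Lef1 followed the batch more than the line. It was at 2.11, 7.12 and 1.65 CPM in WT a, b and c, 4.33 and 7.98 in Hmga1ko, 1.01 and 6.19 in Hmga1ab, and 1.07 and 5.45 in Hmga2ab. In all 4 lines the library of batch b was above that of batch a, and the ratio of batch a to batch b was between 0.164 in Hmga1ab and 0.542 in Hmga1ko. Within each batch Hmga1ko was the highest of the lines and both add-backs were below WT. The log2 fold change against WT was 0.67 ± 0.39 in Hmga1ko (adjusted p = 0.519), -0.56 ± 0.40 in Hmga1ab (adjusted p = 0.561) and -0.63 ± 0.41 in Hmga2ab (adjusted p = 0.428, edgeR). Against Hmga1ko, Lef1 differed by -1.23 ± 0.40 in Hmga1ab and by -1.30 ± 0.40 in Hmga2ab. It was the only member with an unadjusted p under 0.05 there (0.0154 and 0.0116), and its adjusted p-values were 0.9999 and 0.877 (edgeR).

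Tcf7, Tcf7l1 and Ctnnb1 had log2 fold changes between -0.36 and 0.21 against WT in these fits, none of which passed. Ctnnb1 was at 872, 998 and 1115 CPM in WT a, b and c, 879 and 1034 in Hmga1ko, 839 and 1045 in Hmga1ab, and 818 and 939 in Hmga2ab. Its log2 fold changes of 0.03, 0.01 and -0.07 each had a SE of 0.10, and the 95% interval in Hmga1ko ran from -0.21 to 0.27. Tcf7 had log2 fold changes of 0.13 ± 0.18, 0.21 ± 0.18 and 0.09 ± 0.18 in Hmga1ko, Hmga1ab and Hmga2ab. Within batch a it was at 119%, 137% and 133% of WT, and within batch b at 101.2%, 95.6% and 81.8%. Tcf7l1 was at 29.6, 23.8 and 10.2 CPM in WT a, b and c, 43.4 and 18.9 in Hmga1ko, 28.7 and 14.5 in Hmga1ab, and 25.8 and 19.1 in Hmga2ab. Within the batches it ran from 60.8% of WT in Hmga1ab b to 147% in Hmga1ko a. Its log2 fold changes were 0.14 ± 0.22, -0.36 ± 0.22 and -0.25 ± 0.22. Wnt3, the ligand whose loss stops gastrulation, had 10, 3 and 9 counts in WT, 22 and 1 in Hmga1ko, 15 and 1 in Hmga1ab, and 6 and 0 in Hmga2ab, and was too low to test. The count of 0 in Hmga2ab b allows up to 0.197 CPM, close to the 0.218 CPM of WT b, so a difference was not detectable at this depth.

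Of the 9 genes, 8 passed the filter on low counts in the first experiment, and 0 of these passed an adjusted p of 0.05 in edgeR in any of its 5 comparisons. The shares of all 13912 genes tested that passed were 0.0647% in Hmga1ko, 0.0431% in Hmga1ab and 0.165% in Hmga2ab against WT, and 0% in Hmga1ab and 0.0144% in Hmga2ab against Hmga1ko. At an unadjusted p under 0.05 there were 3 members in Hmga1ko (Sp5, Dkk1 and Axin2), 1 in Hmga1ab (Sp5), 2 in Hmga2ab (Sp5 and Axin2) and 1 (Lef1) in each comparison with Hmga1ko. The corresponding counts over all genes were 1747, 1844, 2352, 390 and 708. Limma-trend called 0 members in each of the 5 comparisons, where it called 0.0647%, 0.108% and 0.173% of all genes against WT and 0% and 0.0359% against Hmga1ko. DESeq2 called 0 members against Hmga1ko, and 0.0863% and 0.137% of all genes there. DESeq2 called Sp5 against WT in Hmga1ko (adjusted p = 0.0287), Hmga1ab (0.0230) and Hmga2ab (0.00819), where it called 1.43%, 1.44% and 2.36% of all genes. In Hmga2ab, Sp5 also passed in edgeR with no filter on low counts (adjusted p = 0.0424, with 0.469% of all genes passing). All libraries of Hmga1ko lay below all of WT for Sp5, Dkk1 and Axin2, of Hmga1ab for Sp5, and of Hmga2ab for Sp5, Dkk1 and Axin2 of the 8 genes tested. Such a gap, in either direction, was found in 23.4%, 17.7% and 26.9% of all genes tested. The median log2 fold change of the 8 genes was 0.08 in Hmga1ko, -0.46 in Hmga1ab and -0.44 in Hmga2ab, beside -0.01, 0.00 and 0.00 over all genes.

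The fold changes of Sp5, Dkk1 and Axin2 depended on 2 control libraries, WT a and WT b. Without WT b, the batch term leaves WT a as the only control with a partner, the spread comes from the other 3 lines, and WT a is assumed to vary as they do. Then Sp5 (log2 fold change -4.14 ± 0.55), Dkk1 (-3.71 ± 0.62) and Axin2 (-1.62 ± 0.21) passed in Hmga1ko, with adjusted p-values of 0.0113, 0.0189 and 0.0106 (edgeR). The same 3 genes passed, lower, in Hmga1ab and in Hmga2ab. Of all genes tested, 5.25%, 5.75% and 9.36% passed in the 3 comparisons without WT b. Without WT a, which leaves WT b as that control under the same assumption, the log2 fold changes in Hmga1ko were -1.97 for Sp5, -0.46 for Dkk1 and 0.01 for Axin2, and none passed.

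**Figure D3:**
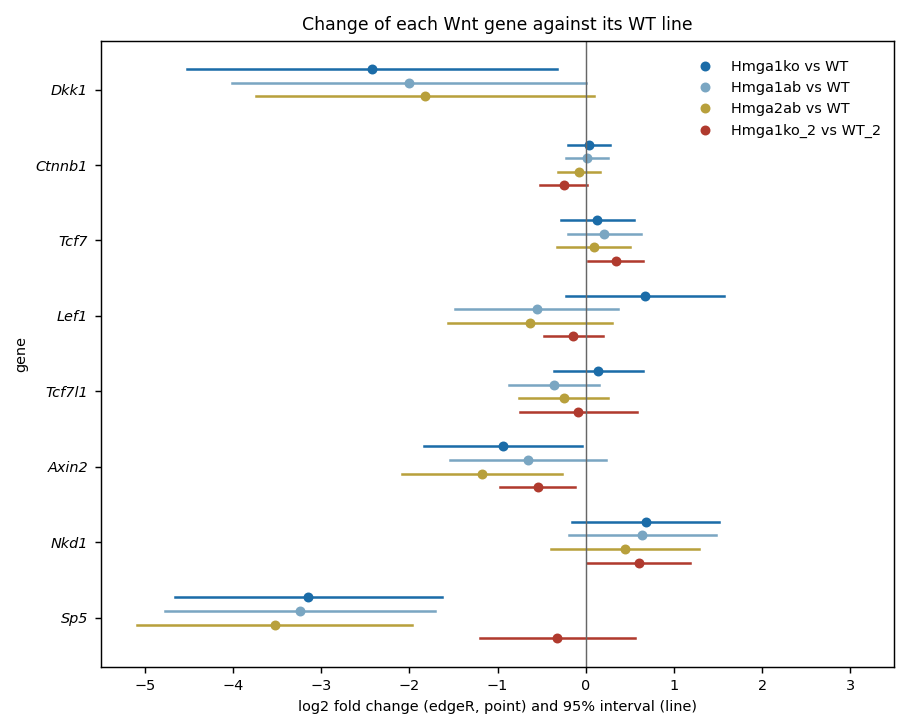
Log2 fold change against the WT line of the same experiment (x axis, point) with its 95% interval (line) from edgeR, for the genes tested (y axis), coloured by comparison. Sp5 is at -3.15 to -3.53 in the 3 comparisons of the first experiment and at -0.32 in the second, and Wnt3, which was not tested, is left out, as is Dkk1 in the second experiment.

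The second experiment put the deletion line beside its own WT line. Axin2, which passed in neither experiment in edgeR with all libraries, was at 8.14, 9.22 and 10.8 CPM in WT_2 a, b and c and at 6.01, 5.51 and 7.62 CPM in Hmga1ko_2, so that the libraries did not overlap. Its log2 fold change was -0.54 ± 0.18, with an adjusted p of 0.0840 (edgeR). Nkd1 was at 2.52, 4.37 and 2.62 CPM in WT_2 and at 4.94, 4.13 and 5.11 CPM in Hmga1ko_2, where only WT_2 b reached the range of the deletion line. Its log2 fold change was 0.60 ± 0.25 (adjusted p = 0.127). Tcf7, a beta-catenin partner that is itself raised by Wnt signalling, showed the same layout. It was at 42.0, 53.7 and 40.1 CPM in WT_2 and at 61.0, 53.5 and 55.9 CPM in Hmga1ko_2. Its log2 fold change was 0.34 ± 0.13 (adjusted p = 0.113).

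Sp5, the gene with the widest gap in the first experiment, overlapped between the lines of the second. It had 20, 25 and 15 counts in WT_2 and 12, 16 and 24 in Hmga1ko_2, or 1.05, 1.71 and 0.803 CPM against 0.801, 0.760 and 1.204 CPM. Its log2 fold change of -0.32 ± 0.38 had a 95% interval from -1.203 to 0.56, which does not reach the -3.15 of Hmga1ko. Tested directly as an interaction in a joint fit of both experiments, the effects differed by 2.81 ± 0.80 on the log2 scale, with an unadjusted p of 0.00425 and an adjusted p of 0.176. Without WT_2 b the difference was 3.12 ± 0.78 with an adjusted p of 0.0410, where 4.87% of all genes passed. In the fit of all libraries 0 of 8 members and 0.307% of 13671 genes passed (edgeR). An unadjusted p under 0.05 was found for 1 of the 8 members (Sp5) and for 2512 of the 13671 genes. For Lef1 the effects differed by -0.82 ± 0.42 (adjusted p = 0.301), and for Axin2 by 0.39 ± 0.46 (adjusted p = 0.640).

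Ctnnb1 was at 1076, 1135 and 1140 CPM in WT_2 and at 888, 968 and 937 CPM in Hmga1ko_2, without overlap, and its log2 fold change was -0.25 ± 0.11 (adjusted p = 0.154, edgeR). Lef1 was also without overlap, at 5.78, 5.26 and 5.83 CPM in WT_2 and 4.94, 5.18 and 5.06 CPM in Hmga1ko_2. Its log2 fold change was smaller, at -0.14 ± 0.14 (adjusted p = 0.483). Tcf7l1 overlapped widely, at 25.4, 39.2 and 23.8 CPM against 38.9, 20.7 and 23.2 CPM.

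Both secreted members were too low to test in the second experiment. Wnt3 had 1, 0 and 1 counts in WT_2 and 4, 4 and 7 in Hmga1ko_2. The sums of 2 and 15 counts had exact 95% Poisson intervals of 0.242 to 7.22 and 8.395 to 24.7 counts, which cover counting error only. The count of 0 in WT_2 b allows up to 0.205 CPM. Fitted without the filter on low counts, Wnt3 had an unadjusted p of 0.0222 and an adjusted p of 0.108 (edgeR), where 7.62% of all genes passed. Dkk1 had 3, 5 and 3 counts in WT_2 and 2, 1 and 1 in Hmga1ko_2, and its intervals of 5.49 to 19.7 and 1.09 to 10.2 counts overlapped.

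Of the 7 members tested in the second experiment, 0 passed in edgeR, where 8.25% of 13098 genes did. At an unadjusted p under 0.05 there were 3 members (Tcf7 and Nkd1 higher, Axin2 lower) and 4843 of all genes. Limma-trend called 0 members and 7.76% of all genes. DESeq2 called Axin2 (adjusted p = 0.0383) and Ctnnb1 (adjusted p = 0.0223), both lower, and 24.7% of all genes. For 3 of the 7 genes (Ctnnb1, Lef1 and Axin2) the libraries did not overlap, as for 51.2% of all genes tested. The median log2 fold change was -0.14 over the 7 genes and 0.04 over all genes. Without WT_2 b, 4 of the 7 passed, beside 42.5% of all genes tested. They were Axin2 (-0.55 ± 0.17, adjusted p = 0.0117) and Ctnnb1 (-0.24 ± 0.05, adjusted p = 9.39e-04), which were lower, and Tcf7 (0.47 ± 0.07, adjusted p = 5.74e-05) and Nkd1 (0.88 ± 0.21, adjusted p = 0.00246), which were higher.

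A list of 89 further Wnt genes, from ligands to targets, was set beside the 9. All 89 were in the tables, 65 were tested in the first experiment and 57 in the second. In Hmga1ko against WT 0 of 65 passed in edgeR, in DESeq2 or in limma-trend. In edgeR 10 of the 65 had an unadjusted p under 0.05 (1 higher, 9 lower), beside 1747 of 13912 over all genes. In Hmga1ko_2 against WT_2, 2 of 57 (1 higher, 1 lower), or 3.51%, passed in edgeR, beside 8.25% of all genes, and 0 under the stricter rule of an adjusted p under 0.01 and at least a 2-fold change, which 0.0687% of all genes met. Fzd7, a Frizzled receptor of ESC, rose by a log2 fold change of 0.70 ± 0.14 (adjusted p = 0.0341), and its log2 fold change in Hmga1ko was -0.25 ± 0.17 (adjusted p = 0.574). Myc, a growth-promoting transcription factor and target of the pathway, fell (log2 fold change -0.77 ± 0.10, adjusted p = 0.0188), and its value in Hmga1ko was -0.64 ± 0.40 (adjusted p = 0.549). Both calls held without WT_2 a or WT_2 b. Both were lost without WT_2 c (adjusted p = 0.0761 for Fzd7 and 0.0727 for Myc) and without Hmga1ko_2 a, b or c (0.114 to 0.166), where 3 or 4 of all genes passed. Without WT_2 b, 23 of 58 listed genes (39.7%) passed, beside 42.5% of all genes. The difference between the 2 effects of Fzd7 was 0.94 ± 0.23 with an adjusted p of 0.122, and 0.79 ± 0.18 with an adjusted p of 0.0314 without WT_2 b (edgeR). The median log2 fold change of the list was -0.06 in Hmga1ko and 0.13 in Hmga1ko_2, beside -0.01 and 0.04 over all genes.

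By role, the most abundant of the 18 ligands per kilobase was Wnt6 in WT, at 0.434 ± 0.196 RPKM, and Wnt5b in WT_2, at 0.323 ± 0.197 RPKM (SD, n = 3 each). Wnt5b was at 0.168, 0.545 and 0.256 RPKM in WT_2 a, b and c, and without WT_2 b its mean was 0.212 RPKM and Wnt7b was the highest ligand there at 0.307 RPKM. Porcn, which attaches the lipid that Wnt ligands need, was the higher of the genes of ligand secretion at 3.93 ± 0.748 and 8.46 ± 1.11 RPKM in WT and WT_2. Among the 15 receptors and co-receptors Fzd5 was the highest, at 47.5 ± 7.94 and 44.9 ± 6.66 RPKM, and among R-spondins and their receptors it was Lgr4, at 21.3 ± 6.24 and 23.7 ± 3.59 RPKM. The leading extracellular inhibitor was Sfrp1, which binds Wnt ligands, at 34.2 ± 7.06 and 13.8 ± 3.25 RPKM. Of the ubiquitin ligases that remove Frizzled receptors, Znrf3 was the higher, at 2.48 ± 0.471 and 1.90 ± 0.264 RPKM. Dvl2, which relays the signal from the receptor, was at 12.2 ± 0.743 and 11.4 ± 1.67 RPKM. In the destruction complex the kinases Csnk1a1 in WT (48.9 ± 8.73 RPKM) and Gsk3a in WT_2 (59.4 ± 6.48 RPKM) came first. The co-repressors Tle4 in WT (39.1 ± 9.43 RPKM) and Tle3 in WT_2 (53.0 ± 8.49 RPKM) were the highest nuclear co-factors. Ccnd1, the cyclin of the first growth phase, led the targets at 49.2 ± 3.01 and 33.6 ± 4.39 RPKM. Of these most abundant genes, 0 passed in either knockout in edgeR. Those with an unadjusted p under 0.05 were Tle4 and Ccnd1 in Hmga1ko and Sfrp1, Znrf3, Dvl2, Ccnd1 and Porcn in Hmga1ko_2. Over all genes such a p was found for 1747 of 13912 in Hmga1ko and for 4843 of 13098 in Hmga1ko_2. DESeq2 called Ccnd1, lower, and Porcn, higher, in Hmga1ko_2, beside 24.7% of all genes.

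**Figure D4:**
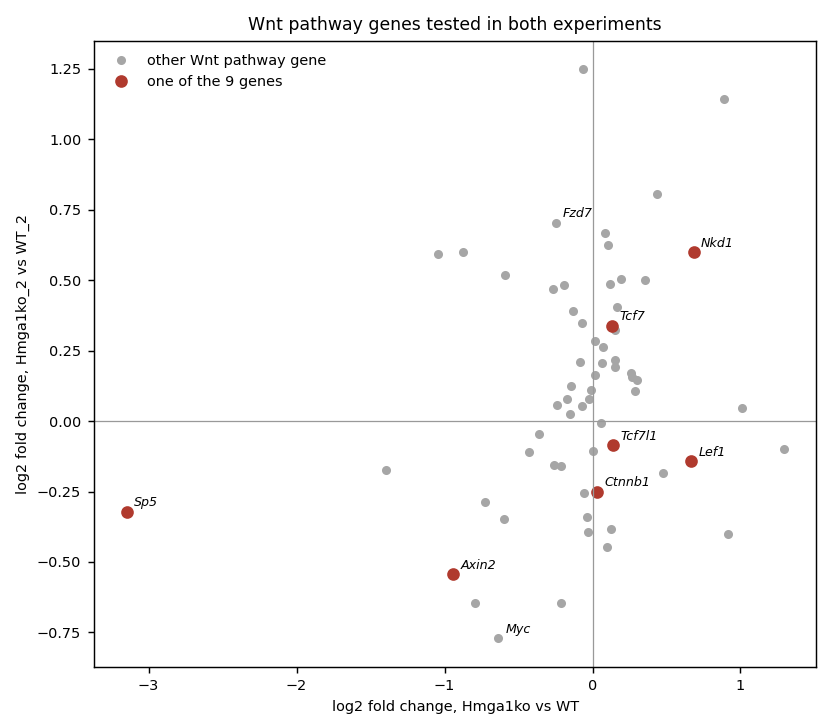
Log2 fold change in Hmga1ko against WT (x axis) and in Hmga1ko_2 against WT_2 (y axis) of the Wnt genes tested in both experiments, 7 of the 9 genes in red and 57 others in grey, each point a gene. Sp5 lies at -3.15 on the x axis and -0.32 on the y axis, and Fzd7 (0.70) and Myc (-0.77) are the ones that passed in the second experiment.

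Across the 15 libraries, centred within each experiment, the members correlated with either sign. Dkk1 and Wnt3 were too low to be included. Axin2 had a Pearson r of 0.78 with Sp5 and 0.72 with Ctnnb1, and of -0.78 with Nkd1 and -0.76 with Tcf7. Tcf7 and Nkd1 had an r of 0.89, and Ctnnb1 and Tcf7 of -0.81. The libraries share batches, batch a differs from batch b in depth, and WT_2 b stood apart. These values thus describe the libraries and were not tested. Of 13043 genes compared, those most like Axin2 were Kdm2b (r = 0.93), Gpd2 (0.93), D16Ertd472e (0.93), Gbx2 (0.92) and Steap2 (0.92). The gene most like Sp5 was Enpp3 (0.95), and the nearest to Ctnnb1 was Gdi2 (0.98), to Tcf7 Coq10a (0.97), to Lef1 Iars (0.94), to Tcf7l1 Zfp609 (0.94) and to Nkd1 Palm (0.96).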

How the data were processed

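Gene counts of 15 libraries of ESC were analysed, 9 of the first experiment and 6 of the second. The authors made strand-specific libraries of rRNA-depleted RNA, trimmed the first 3 bases of the reads, aligned them with QuasR and Bowtie to mm9, kept 1 random alignment of each multi-mapping read, and deposited whole-number counts of same-strand reads over the exons of UCSC known genes. The submitters' processing notes name bcl2fastq 2.17. The counts are unnormalized, and the deposited exon width served for RPKM.

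Genes whose counts averaged 10 or more entered edgeR 4.0.16 (TMM, quasi-likelihood, R 4.3.3) and Benjamini-Hochberg adjustment over all genes tested, 13912 and 13098, passing at an adjusted p under 0.05. The first experiment was fitted over all 4 groups with the letter as a batch term, as in the methods of the study. WT c is the only library of its batch and is absorbed by that term, so the folds there rest on batches a and b. The second was fitted without a batch term, and the difference between the experiments as an interaction in a joint fit of 13671 genes. The a minus b differences of the lines had correlations across genes of 0.319 to 0.758, and same-letter libraries of the second experiment of -0.055 to 0.070. The cultures were harvested on different days, and p-values measure the spread between these libraries, not between independent clones.

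All 9 members were named in every comparison. Of the 89 other Wnt genes, those that passed and the most abundant per kilobase of each role were named. Likeness is Pearson's r of log2 CPM (prior count 2), centred within experiment. The members and lists were chosen with earlier results of these data known. DESeq2 1.42.0, limma 3.58.1, other scalings and filters and the omission of each library were tried. The test was tried on simulated counts with a small fixed spread and no batch differences, in which only genes with high counts were changed. That trial does not cover genes with counts as low as those of Sp5 and Dkk1. Poisson intervals and limits for a count of 0 (3 counts) cover counting error only. Gene starts came from RefSeq (GRCm38.p6), for all 9 members, and coordinates of that build were not set beside mm9 values. Plots were drawn with matplotlib 3.10.9.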

Additional observations from a re-analysis of the deposited data

How the results depend on the processing

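Of 722 recomputed values of 44 results, 652 kept their direction and their side of the threshold, 37 came past it, 5 were lost and 28 turned, all 28 of values that had not passed. Members passing in Hmga1ko against WT numbered 0 with all libraries, 1 in DESeq2 and 0 to 3 when each library was left out, and the same numbers were found in Hmga1ab and in Hmga2ab. In Hmga2ab it was also 1 with no filter, where 0.469% of all genes passed, and 1 with only the groups compared. In Hmga1ko_2 it was 1 (Tcf7) with summed counts, which moved the median of all genes from 0.04 to 0.32, 2 in DESeq2, and 0 to 4 when each library was left out. For the compared groups alone and for summed counts, the share of all genes passing is not given here. Those counts of members therefore cannot be set against it. Members that differed between the experiments were 0 to 1 over the omissions. Pathway genes passing in Hmga1ko were 0 to 6 over the omissions. Of all genes, 5.25% passed in Hmga1ko without WT b. In Hmga1ko_2 there were 11 pathway genes in DESeq2, 0 under the stricter rule, and 0 to 23 over the omissions. The 23 were found without WT_2 b, and 0 without WT_2 c or any 1 library of Hmga1ko_2. Beside these, DESeq2 called 24.7% of all genes, and 42.5% passed in edgeR without WT_2 b.

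The replicate letter pairs the libraries of the first experiment. With no replicate block there, 0 members and 0 pathway genes passed, and Sp5 in Hmga1ko was at -2.68, so no call changed. In the second experiment the letters share only a number, and with a replicate block 0 members and 2 pathway genes passed. The share of all genes passing in these fits is not given here, so the counts cannot be set against it.

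The values that turned were as follows, all log2 fold changes. With no replicate block, Ctnnb1 was at -0.065 in Hmga1ko and -0.081 in Hmga1ab, and Tcf7l1 at 0.040 in Hmga1ab and 0.095 in Hmga2ab. With DESeq2's size factors and in DESeq2, Ctnnb1 in Hmga1ab was at -0.0033. Over the omissions, in Hmga1ko, Tcf7 ran from -0.11 to 0.38, Lef1 from -0.063 to 1.26, Tcf7l1 from -0.19 to 0.42 and Axin2 from -1.62 to 0.0052. In Hmga1ab, Ctnnb1 ran from -0.032 to 0.048, Tcf7 from -0.040 to 0.46, Axin2 from -1.33 to 0.29 and Nkd1 from -0.035 to 1.16. In Hmga2ab, Dkk1 ran from -2.95 to 0.31, Tcf7 from -0.15 to 0.33, Tcf7l1 from -0.53 to 0.033 and Nkd1 from -0.22 to 0.96. WT a or WT b gave one end of most of these ranges. Sp5 in Hmga1ko kept its direction, from -4.14 to -1.97. In Hmga1ko_2, summed counts gave 0.034 for Ctnnb1, 0.13 for Lef1 and 0.24 for Tcf7l1. Over the omissions there, Tcf7l1 ran from -0.42 to 0.15 and Sp5 from -0.58 to 0.0075, the upper ends without WT_2 b. Apart from the scaling by summed counts, the cause was not tested. DESeq2 and limma-trend were not run for the difference between the experiments. Sp5, Dkk1 and Wnt3 had 32 counts or fewer in most libraries, which limits what can be seen of them.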
